A study of Mus musculus with 12 samples.

Results

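Matrix fibroblasts and myofibroblasts of normal mouse lung were compared by bulk RNA sequencing. The comparison used 6 libraries, 3 of matrix fibroblasts from normal mice (N_MF) and 3 of myofibroblasts from normal mice (N_MyoF). Of 20606 genes in the deposited table, the 13300 with at least 1 FPKM in at least 3 of the 12 libraries of the series were tested. FPKM, fragments per kilobase of transcript scaled to the mapped fragments of a library, is a level per length, so levels of different genes can be set side by side. The other 6 libraries held the same subgroups from mice with lung metastasis (M_MF and M_MyoF, 3 libraries each), and were used to see which differences appeared again in a second condition. The study asked how fibroblast subgroups of the lung contribute to the growth of tumour cells that have spread there. Its design text calls the subgroups purified while the extraction text speaks of tissues, and no gate, genotype, strain, age or agent is given for any group in the sources used here. In addition, no label says that the libraries of a group came from separate mice. The p-values therefore speak of library-to-library spread alone, and that spread could be technical. The depth is unknown because FPKM keeps no read totals. The 6 normal libraries summed to between 528176 and 541506 FPKM, and 11466 to 12370 genes reached 1 FPKM in them. Within a group, correlations of log2 values lay between 0.996 and 0.998, and the median coefficient of variation of genes at 100 FPKM or more was 1.69% in N_MF and 1.75% in N_MyoF. Whether libraries of a group are repeat preparations of 1 sample was not tested, since FPKM holds no counts to set against sampling noise. Where a pair of levels is written as 1 value against another, they are the means of N_MF and N_MyoF unless metastatic lung is named.

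Lung fibroblasts lay down and remodel the extracellular matrix that holds airways, vessels and alveoli. Matrix fibroblasts in the wider sense include alveolar fibroblasts, which sit beside epithelium and are marked by genes such as Tcf21 and Npnt, and adventitial fibroblasts, which wrap larger vessels and airways and are marked by Pi16, Dpt and Col14a1. Myofibroblasts carry a contractile apparatus of smooth muscle actin and myosin, and those of alveolar ducts are also known for Hhip, Lgr6 and Aspn. Smooth muscle cells and pericytes share much of that contractile programme.

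The subgroups differed in most genes tested. In a linear model of the 4 group means (limma, two-sided tests, Benjamini-Hochberg adjustment across the 13300 genes), 10912 genes passed at an adjusted p under 0.05, which is 82% of those tested. Because replicate libraries were so alike, a difference of at least 2-fold on the log2(FPKM + 1) scale was used to lead. By that rule 649 genes were higher in N_MF (4.88% of genes tested) and 1583 were higher in N_MyoF (11.9%). All log2 differences below are N_MF minus N_MyoF on this scale, with the standard error of the model, and they understate the differences of genes near 0 FPKM. The median of all 13300 genes was -0.21, so a typical gene was listed slightly lower in N_MF. Scaling the libraries by median ratios or by quantiles moved that median by 0.24, to 0.03. With the deposited values 29.8% of the genes that passed were higher in N_MF, against 53.8% with median-ratio scaling and 52.2% with quantile normalization. Of the genes at least 2-fold apart, the share higher in N_MF was 29.1%, 43.7% and 44.7% in the same order. Scaling to equal sums left the median at -0.21 but changed counts. With it 14193 genes were tested, and 756 were at least 2-fold higher in N_MF and 1933 in N_MyoF. Small differences therefore depend on the scaling and should be read beside -0.21 as well as 0. Which scaling is nearer to the RNA of the cells was not tested. Counts of list members given below use the 2-fold rule and are to be read against 4.88% and 11.9%.

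**Figure D1:**
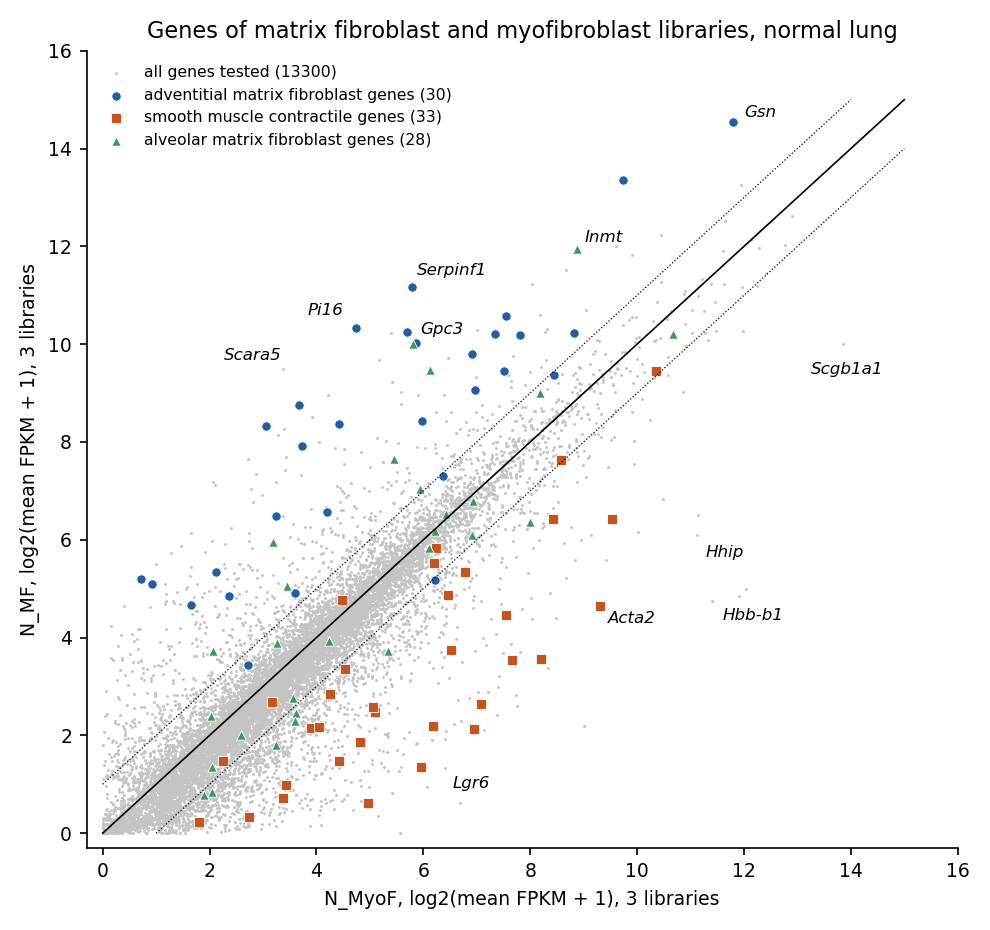
Mean level of each gene tested in N_MF (vertical axis) and N_MyoF (horizontal axis), as log2(mean FPKM + 1) over 3 libraries. The solid line marks equal levels and the dotted lines mark 2-fold differences. Of the adventitial genes 26 of 30 lie above the dotted lines and of the smooth muscle genes 26 of 33 below them, while alveolar matrix fibroblast genes lie on both sides.

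The markers matched the subgroup names in part. Pdgfra, the receptor that marks most lung fibroblasts, stood at 89.5, 88.2 and 88.9 FPKM in the N_MF libraries and at 9.65, 9.42 and 9.04 FPKM in the N_MyoF libraries. Acta2, smooth muscle actin, stood at 24.7, 23 and 24.4 FPKM in N_MF and at 640.5, 617 and 626 FPKM in N_MyoF. All 3 libraries of each group lay apart from those of the other for both genes, in opposite directions. The markers of adventitial fibroblasts were all higher in N_MF, with Pi16 at 1295 against 25.6 FPKM, Mfap5 at 895 against 119 FPKM, Dcn at 10534 against 857 FPKM, Ly6a at 1178 against 160.2 FPKM, Dpt at 1193 against 451 FPKM and Col14a1 at 156 against 81.8 FPKM. The markers of alveolar fibroblasts were split. Inmt (3919 against 466 FPKM) and Tcf21 (201 against 43 FPKM) were higher in N_MF, whereas Npnt (12.2 against 39.6 FPKM), Itga8 (4.45 against 11.3 FPKM) and Col13a1 (3.03 against 5.01 FPKM) were higher in N_MyoF, and Limch1 (14.2 against 17.9 FPKM) passed towards N_MyoF as deposited but not with median-ratio scaling (-0.31 and -0.03). The 7 myofibroblast markers Acta2, Myh11 (1.56 against 60.7 FPKM), Tagln (10.8 against 292 FPKM), Hhip (67.8 against 2230.5 FPKM), Aspn (351 against 1210.2 FPKM), Lgr6 (1.52 against 83.3 FPKM) and Tgfbi (334 against 604 FPKM) were all higher in N_MyoF. So were the smooth muscle markers Actg2 (3.38 against 123 FPKM), Des (10.6 against 200.3 FPKM), Cnn1 (3.58 against 72 FPKM) and Lmod1 (1.79 against 20.5 FPKM), and the pericyte markers Rgs5 (0.6 against 28.8 FPKM), Cspg4 (1.6 against 17.1 FPKM), Notch3 (0.47 against 15.9 FPKM) and Kcnj8 (32.3 against 72.1 FPKM). The N_MF libraries thus carried adventitial markers and the alveolar markers Inmt and Tcf21 at high levels. The N_MyoF libraries carried markers of myofibroblasts, smooth muscle and pericytes together.

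**Figure D2:**
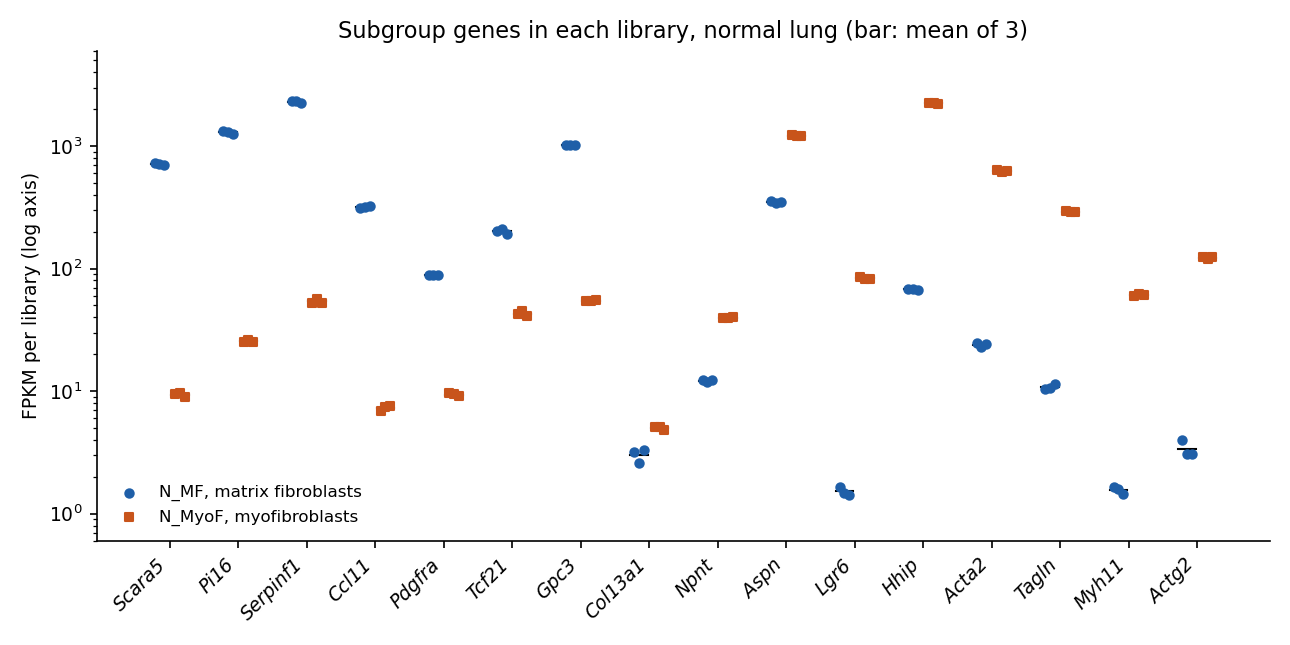
FPKM of 16 subgroup genes in each of the 6 normal lung libraries, on a log axis, with the mean of 3 libraries as a bar. The groups do not overlap for any of the 16 genes. Col13a1, at 2.59 to 5.11 FPKM, is the closest pair and is higher in N_MyoF.

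Most lists of markers of cells that are not fibroblasts were also higher in N_MyoF, at levels from near 0 to the top of the libraries. Scgb1a1, the secretory protein of club cells, was the most abundant gene of N_MyoF at 14574, 15053 and 14795 FPKM, against 1008, 1033 and 1018 FPKM in N_MF. Of 16 club and secretory cell genes, 15 were tested, 11 were at least 2-fold higher in N_MyoF and 1, the aldehyde dehydrogenase Aldh3a1, was higher in N_MF. Their summed level was 1132 to 1157 FPKM in N_MF and 15155 to 15624 FPKM in N_MyoF. All 18 alveolar epithelial genes were tested and 16 were at least 2-fold higher in N_MyoF, with sums of 1741 to 1775 and 5773 to 5903 FPKM. Surfactant protein C, Sftpc, led these at 1228 against 4051 FPKM.

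The hemoglobin genes Hbb-b1, Hba-a2, Hbb-b2 and Hba-a1 gave the largest differences of the genes named here. Hbb-b1 stood at 29.8, 30.5 and 23.8 FPKM in N_MF and at 3771, 3871 and 3834 FPKM in N_MyoF. Hbb-b2 averaged 3.58 against 511 FPKM (-6.81 ± 0.0506). Hba-a1 and Hba-a2 are near-identical copies whose reads the counting could have split between them, and they varied against each other in the libraries numbered 3. The marker Hbb-bs was near 0 and went the other way (0.463 against 0.193 FPKM, at most 1.39 FPKM in any normal library). Whether the counting split reads between Hbb-bs, Hbb-b1 and Hbb-b2 was not tested. Of 12 erythroid and platelet genes, 9 were tested, 5 were at least 2-fold higher in N_MyoF and 0 in N_MF. The list, which holds Hba-a1 and Hba-a2, summed to 59.9 to 67.4 FPKM in N_MF and 6863 to 7010.5 FPKM in N_MyoF. Alas2, the heme synthesis enzyme of red cell precursors, stood at 0.283 against 34.3 FPKM.

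Genes of atrial and heart muscle, which also sheathes the large pulmonary veins of mice, differed in nearly every member. Of 34 genes matched, 28 were tested and 26 were at least 2-fold higher in N_MyoF, with a median log2 difference of -3.48. Myl7, the atrial myosin light chain, stood at 11.3, 12.1 and 9.4 FPKM in N_MF and 294, 287 and 285 FPKM in N_MyoF, and Nppa, the atrial natriuretic peptide, at 3.67 against 94.5 FPKM. The list summed to 102 to 104 FPKM in N_MF and 1824 to 1861 FPKM in N_MyoF. Cartilage genes followed, with 23 of 29 tested at least 2-fold higher in N_MyoF, 2 at least 2-fold higher in N_MF and sums of 268 to 273 and 898 to 921 FPKM. Examples were Chad, a leucine-rich protein of cartilage (6.04 against 211 FPKM), and Col2a1, the main cartilage collagen (0.773 against 41.9 FPKM).

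Endothelial, leukocyte and nerve genes also had many members higher in N_MyoF. At least 2-fold higher there, of the genes tested, were 16 of 21 endothelial genes (Pecam1, 24.3 against 58 FPKM; Cdh5, 6.43 against 22.3 FPKM), 17 of 22 leukocyte and macrophage genes (Ptprc, 0.643 against 3.8 FPKM; Lyz2, 259.5 against 984 FPKM), 10 of 16 neutrophil genes (S100a8, 13 against 55.6 FPKM), 7 of 12 lymphocyte genes (Cd79a, 1.69 against 8.28 FPKM) and 12 of 18 Schwann cell and nerve genes. Epithelial genes at large, with 11 of 11 tested, were led by Krt19 (10.7 against 56 FPKM), while the defining genes Epcam (1.91 against 5.96 FPKM) and Cdh1 (1.81 against 7.14 FPKM) were low in both groups. Mesothelial genes went 7 of 15 tested to N_MyoF and 3 to N_MF, with Msln at 1.5 against 20.4 FPKM and Wt1 at 1.99 against 2.06 FPKM. Of the genes tested, 2 of 8 mast cell and basophil genes and 4 of 10 ciliated cell genes (Foxj1, 0.337 against 1.13 FPKM) were at least 2-fold higher in N_MyoF. With quantile normalization the neutrophil count was 6 and the ciliated count 2. Marco, a macrophage receptor, was listed at 0 in all N_MF libraries and averaged 0.317 FPKM in N_MyoF, and Sox10, the Schwann cell regulator, averaged 0.0167 and 0.737 FPKM. How much of any difference described below moved with RNA of such cells was not tested. In bulk samples, fewer cells of a type and less RNA per cell cannot be told apart.

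**Figure D3:**
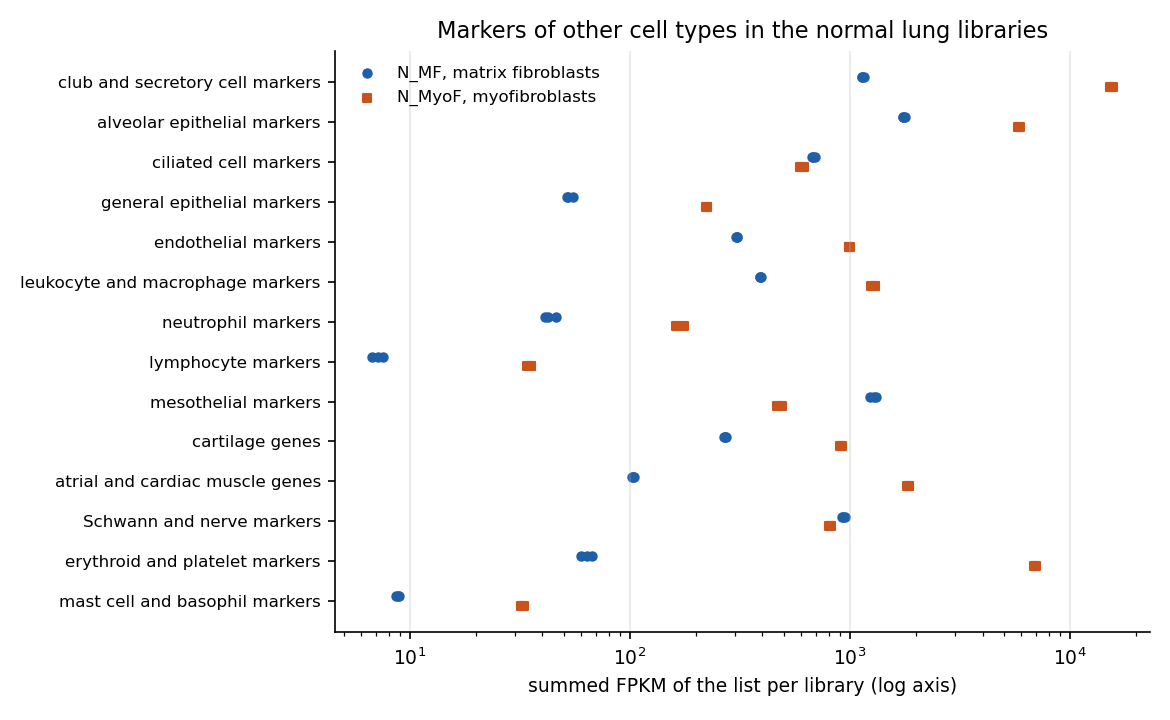
Summed FPKM of 14 marker lists of other cell types in each normal lung library, on a log axis. Circles are N_MF and squares N_MyoF. The sums were higher in N_MyoF for 11 lists. Those of ciliated, mesothelial and nerve markers were higher in N_MF, where single abundant members (Tppp3, Igfbp6 and Pmp22) make up most of the sum.

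Adventitial genes had the highest median difference towards N_MF of the lists examined. All 30 listed genes were tested, 26 were at least 2-fold higher in N_MF and 1 was at least 2-fold higher in N_MyoF, with a median log2 difference of 2.96. Scara5, a ferritin-binding scavenger receptor (chr14:65666403-65764826 on GRCm38), is not on that list but showed the largest difference towards N_MF of the genes named here. It stood at 723, 715 and 704 FPKM in the N_MF libraries and at 9.44, 9.63 and 9.03 FPKM in the N_MyoF libraries, a 69-fold difference (6.11 ± 0.0269; limma, adjusted p = 7.1e-20). Pi16, a secreted peptidase inhibitor that defines a stem-like adventitial fibroblast state across tissues (chr17:29318796-29328903), stood at 1326, 1303 and 1256 FPKM against 25.1, 26.4 and 25.2 FPKM (5.61 ± 0.0321; limma, adjusted p = 5.3e-19). Serpinf1, pigment epithelium-derived factor, an inhibitor of vessel growth (chr11:75410029-75422623), stood at 2319, 2351 and 2256 FPKM against 52.4, 57 and 52.3 FPKM (5.40 ± 0.0373). The groups did not overlap for any of these 3 genes, and the libraries within a group lay close together.

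Further adventitial genes covered secreted signals, enzymes and a transcription factor. Ccl11, eotaxin, which attracts eosinophils, stood at 314, 318 and 325 FPKM in N_MF and 6.91, 7.37 and 7.53 FPKM in N_MyoF. Entpd2, an enzyme that degrades extracellular ATP, averaged 429.6 ± 8.5 against 11.7 ± 0.203 FPKM (SD, n = 3), and the serine protease Htra3 averaged 1223 ± 14.4 against 50.6 ± 1.16 FPKM (SD, n = 3). Ebf2, a transcription factor of mesenchymal precursors, stood at 35.7 ± 0.764 against 0.64 ± 0.0436 FPKM (SD, n = 3). The exception was Sema3c, a semaphorin, which was higher in N_MyoF (35.3 against 73.3 FPKM, -1.03 ± 0.0221). Gsn, the actin-severing protein gelsolin, was the most abundant gene of N_MF at 24169, 23939 and 23385 FPKM and stood at 3607, 3567 and 3495 FPKM in N_MyoF. Of the other abundant N_MF genes, Dcn and Mgp, the matrix Gla protein (9777 against 3919 FPKM, 1.32 ± 0.0173), were more than 2-fold higher there, and Cst3, the protease inhibitor cystatin C, was higher by less (0.89 ± 0.0119).

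The remaining genes with the largest differences towards N_MF were mostly secreted or surface proteins. Angptl7, an angiopoietin-like protein, averaged 283 ± 2.1 against 8.69 ± 0.347 FPKM, and Apod, an apolipoprotein of the lipocalin family, 366 ± 4.34 against 14 ± 0.358 FPKM (SD, n = 3). Dpep1, a membrane dipeptidase, averaged 1203 ± 16.5 against 41.3 ± 2.28 FPKM, and Ccl8, a monocyte-attracting chemokine, 44.6 ± 1.9 against 0.993 ± 0.359 FPKM (SD, n = 3). Ifi205, an interferon-inducible gene of a family of close copies, averaged 137 ± 2.61 against 3.3 ± 0.495 FPKM (SD, n = 3). Reads of that family could have been split between its members by the counting.

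Alveolar matrix fibroblast genes did not move as a block. Of 30 listed, 28 were tested, 8 were at least 2-fold higher in N_MF and 7 at least 2-fold higher in N_MyoF (8 and 4 with quantile normalization). The median log2 difference was -0.20 as deposited and 0.09 with median-ratio scaling, so its sign depended on the scaling. The summed level was 8167 to 8402 FPKM in N_MF and 3407 to 3536 FPKM in N_MyoF, of which Inmt made up 3919 and 466 FPKM. Gpc3, a glypican that binds growth factors, stood at 1022, 1023 and 1022 FPKM in N_MF and 54, 54.5 and 55.4 FPKM in N_MyoF (4.20 ± 0.0158). The retinol-oxidising enzyme Adh1 (711 against 68.4 FPKM), the methyltransferase Inmt (3.07 ± 0.0165), the lymphatic growth factor Vegfd (60.7 against 8.1 FPKM) and the lung mesenchyme regulator Tcf21 (2.20 ± 0.0389) also went to N_MF. In the other direction, the integrin ligand Npnt stood at 12.2, 11.9 and 12.4 FPKM in N_MF and 39.3, 39.5 and 40.1 FPKM in N_MyoF, and its receptor chain Itga8 at 4.68, 4.25 and 4.43 and 11.8, 11.4 and 10.6 FPKM. The adipokine Rarres2, chemerin, was abundant in both groups (1174 against 1637 FPKM, -0.48 ± 0.0336), and Fgf10, a growth factor for alveolar epithelium, stood at 13.9 against 8.62 FPKM (0.63 ± 0.0452). Npnt and its receptor chain Itga8 thus lay on the opposite side from Gpc3, Adh1 and Inmt.

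Myofibroblast genes were higher in N_MyoF in most cases. Of 26 listed, 25 were tested, 17 were at least 2-fold higher in N_MyoF and 0 at least 2-fold higher in N_MF (2 with median-ratio or quantile scaling), with a median log2 difference of -2.85. Hhip, the hedgehog-binding inhibitor (chr8:79965850-80058060 on GRCm38), stood at 68.6, 68.1 and 66.5 FPKM in N_MF and 2266, 2235 and 2190.4 FPKM in N_MyoF, a 32.5-fold difference (-5.02 ± 0.0248; limma, adjusted p = 1.7e-19). Lgr6, a receptor for R-spondins (chr1:134983300-135105374), stood at 1.65, 1.48 and 1.43 FPKM against 85.6, 82.4 and 81.8 FPKM (-5.06 ± 0.035; limma, adjusted p = 3e-18). Enpp2, the enzyme autotaxin that makes lysophosphatidic acid, averaged 113 ± 1.31 against 1440.5 ± 19.8 FPKM (SD, n = 3).

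Other genes tied to myofibroblasts differed by less or in the other direction. Aspn was already at 357, 342 and 353 FPKM in N_MF and reached 1221, 1200.4 and 1209 FPKM in N_MyoF. Postn, periostin, which is often used to mark activated fibroblasts, differed little (230.3 against 215 FPKM, 0.10 ± 0.0195). The elastin gene Eln (586 against 367 FPKM), the proteoglycan Lum (1499.8 against 1003 FPKM), the growth factor Igf1 (33.2 against 18.2 FPKM) and the cadherin Cdh11 (45.5 against 23.7 FPKM) were higher in N_MF by under 2-fold.

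Smooth muscle contractile genes were mostly higher in N_MyoF. Of 35 listed, 33 were tested, 26 were at least 2-fold higher in N_MyoF and 0 in N_MF, and the median log2 difference was -2.45. Acta2 (chr19:34240336-34255585) differed 25.2-fold (-4.65 ± 0.0261; limma, adjusted p = 4.7e-19). Tagln, transgelin, stood at 10.3, 10.6 and 11.4 FPKM in N_MF and 296, 289 and 291 FPKM in N_MyoF, and Myh11, smooth muscle myosin heavy chain, at 1.66, 1.59 and 1.44 and 59.7, 61.6 and 60.8 FPKM. Actg2, enteric smooth muscle actin, stood at 3.97, 3.07 and 3.09 and 123, 121 and 124 FPKM. All N_MF libraries were below all N_MyoF libraries for each of these 4 genes. Actc1, a heart actin also on the atrial list, stood at 5.92, 4.68 and 5.21 and 135, 134 and 133 FPKM, while the only member that passed towards N_MF was the fibronectin receptor chain Itga5 (26.3 against 21.4 FPKM, 0.29 ± 0.032).

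Pericyte genes and genes that control contraction lay on the same side. Of 22 pericyte genes, all tested, 17 were at least 2-fold higher in N_MyoF and 2 at least 2-fold higher in N_MF. Higd1b, a mitochondrial protein enriched in lung pericytes, stood at 3.93, 3.23 and 2.83 FPKM in N_MF and 144, 140.3 and 134 FPKM in N_MyoF. Cox4i2, a respiratory subunit variant of oxygen-sensing cells, stood at 10.4, 8.9 and 8.71 and 322, 321 and 317 FPKM. Trpc6, a cation channel, stood at 0.383 against 24.6 FPKM, and the opposite members were the matrix protein Hmcn2 (15.5 against 0.267 FPKM) and the prostaglandin receptor Ptger3 (16 against 6.96 FPKM). Of 50 genes for calcium and cyclic nucleotide control of contraction, 40 were tested and 23 were at least 2-fold higher in N_MyoF. Ednrb, an endothelin receptor that endothelium also expresses, stood at 3.91, 4.28 and 4.81 and 165, 166 and 167 FPKM, and Rgs2, a brake on Gq signalling, at 22.8 against 598 FPKM. Gucy1a1, the nitric oxide receptor subunit, stood at 15.7 against 162 FPKM. The 4 members at least 2-fold higher in N_MF included Agtr2, an angiotensin receptor (6.46 against 0.04 FPKM), and Ptgir, the prostacyclin receptor (14.2 against 2.56 FPKM). Agt, which encodes the angiotensin precursor, went the other way, at 4.89, 5.45 and 4.83 FPKM in N_MF and 215, 214 and 211 FPKM in N_MyoF.

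Promoters were inspected for the CArG box, the element with CC and GG around a run of A and T to which serum response factor binds in contractile genes. RefSeq promoter windows (GRCm38.p6, 250 bases before to 50 after a start) existed for 10564 of the 13300 genes tested, and 165 of these genes (1.56%) held the box on either strand, as did 1.81% of all genes in the RefSeq table. It was found in 37 of 1194 genes with a window among those at least 2-fold higher in N_MyoF (3.1%), and in 4 of 490 among those at least 2-fold higher in N_MF (0.816%). The former included the heart muscle genes Myl7 and Actc1. Of the smooth muscle genes 3 of 26 held it (11.5%), and of the adventitial genes 0 of 19. The 3 were Myl9, Actc1, which is also on the atrial list, and Myl6, which differed by under 2-fold. The sequences below are shown because they belong to muscle genes and, for Trpc6, a pericyte gene with large differences towards N_MyoF, and the capitals mark the box. No sequence after the annotated start is printed.
Actc1 (chr2:114052876-114052967, minus strand, box from 47 bases before the start): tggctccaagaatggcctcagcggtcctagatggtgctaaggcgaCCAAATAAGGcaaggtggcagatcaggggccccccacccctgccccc
Myl7 (chr11:5898789-5898888, minus strand, box from 61 bases before the start): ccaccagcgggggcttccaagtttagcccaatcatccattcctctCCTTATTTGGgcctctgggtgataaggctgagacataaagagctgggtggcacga
Myl9 (chr2:156775258-156775357, plus strand, box from 161 bases before the start): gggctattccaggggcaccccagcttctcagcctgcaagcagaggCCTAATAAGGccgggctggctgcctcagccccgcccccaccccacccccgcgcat
Trpc6 (chr9:8543975-8544074, plus strand, box from 122 bases before the start): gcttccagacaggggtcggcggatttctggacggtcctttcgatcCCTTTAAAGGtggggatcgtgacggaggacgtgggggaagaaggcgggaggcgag
Myl9 encodes the regulatory light chain of smooth muscle myosin (84.5 against 736 FPKM, -3.11). Myl6 stood at 698 against 1315 FPKM (-0.91). The windows of Acta2 and Cnn1 did not hold these letters, which says nothing about the factor itself. As a counterpart from the N_MF side, Lama2, a laminin chain (73.4 against 16.4 FPKM), held a box too.
Lama2 (chr10:27616943-27617026, minus strand, box from 39 bases before the start): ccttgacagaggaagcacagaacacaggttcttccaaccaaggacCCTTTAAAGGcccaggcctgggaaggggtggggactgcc

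Extracellular matrix genes differed in both directions. Of 33 fibrillar and associated collagens matched, 26 were tested, 7 were at least 2-fold higher in N_MF and 9 in N_MyoF (10 and 9 with median-ratio scaling). The interstitial collagens were on the N_MF side, with Col1a1 at 2960.3, 3002 and 2872 FPKM against 411, 417 and 396 FPKM, Col1a2 at 2418 against 262 FPKM and Col3a1 at 3599 against 961 FPKM. Those on the N_MyoF side were led by the cartilage collagens Col2a1 (-4.60), Col9a3 (0.627 against 14 FPKM) and Col9a2 (0.727 against 11.2 FPKM). Col2a1 is itself a member of the cartilage list described above. Of 32 basement membrane genes, 26 were tested, 8 were at least 2-fold higher in N_MF and 5 in N_MyoF (11 and 2 with quantile normalization). Smoc2, a calcium-binding matrix protein, stood at 493, 500.0 and 491 FPKM against 17.2, 18.4 and 17.1 FPKM, Col15a1 at 37.3 against 2.1 FPKM and Nid1, nidogen, at 271 against 33.9 FPKM. Agrn, agrin, went to N_MyoF with Npnt (3.66 against 8.79 FPKM).

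Elastic fibre and microfibril genes leaned to N_MF, with 13 of 25 listed (23 tested) at least 2-fold higher there, 3 at least 2-fold higher in N_MyoF and a median of 1.19. Fbln2, fibulin 2, stood at 308, 309 and 301 FPKM in N_MF and 9.88, 9.37 and 9.07 FPKM in N_MyoF. Mfap5 averaged 895 ± 5.36 against 119 ± 2.41 FPKM (SD, n = 3), Efemp1, another fibulin, 259.7 against 38.2 FPKM and Emilin2 42.6 against 2.12 FPKM. The latent TGF-beta binding proteins split, with Ltbp1 higher in N_MF (67.9 against 21.6 FPKM) and Ltbp2 higher in N_MyoF (3.01 against 38.7 FPKM). Among 16 small leucine-rich proteoglycans (15 tested), Dcn (3.62 ± 0.0126), Podn (207 against 9.85 FPKM) and Epyc (24.9 against 1.24 FPKM), which is on the cartilage list too, were higher in N_MF, and Aspn and the cartilage protein Chad in N_MyoF.

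Matricellular proteins and proteases were split between the subgroups as well. Of 37 matricellular and adhesive genes matched, 34 were tested, 14 were at least 2-fold higher in N_MF and 8 in N_MyoF. Thbs1, thrombospondin 1, which activates latent TGF-beta, stood at 90.4, 92.2 and 88 FPKM in N_MF and 2255, 2294 and 2227 FPKM in N_MyoF, whereas its relative Thbs4 stood at 31.7 against 3.28 FPKM. Spp1, osteopontin, averaged 4.91 against 44.2 FPKM, Srpx 136 against 19.9 FPKM and Vit, vitrin, 28.6 against 1.27 FPKM. Of 46 matrix proteases and inhibitors, 42 were tested, 18 were at least 2-fold higher in N_MF and 8 in N_MyoF. The collagen-degrading cathepsin Ctsk (232 against 21.9 FPKM) went to N_MF with Serpinf1 and Htra3. The serine protease inhibitor Serpine2 (47.2 against 459 FPKM) and the metalloprotease Adamts8 (4.52 against 40.1 FPKM) went to N_MyoF. All 20 integrin genes were tested and 8 were at least 2-fold higher in N_MyoF, among them the collagen receptor Itga1 (6.96 against 38.1 FPKM) and the laminin receptors Itga7 (1.22 against 8.02 FPKM) and Itga3 (3 against 12.6 FPKM). The 3 on the N_MF side included the collagen receptor Itga11 (29.9 against 2.98 FPKM) and the integrin-like Itgbl1 (199 against 5.59 FPKM).

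**Figure D4:**
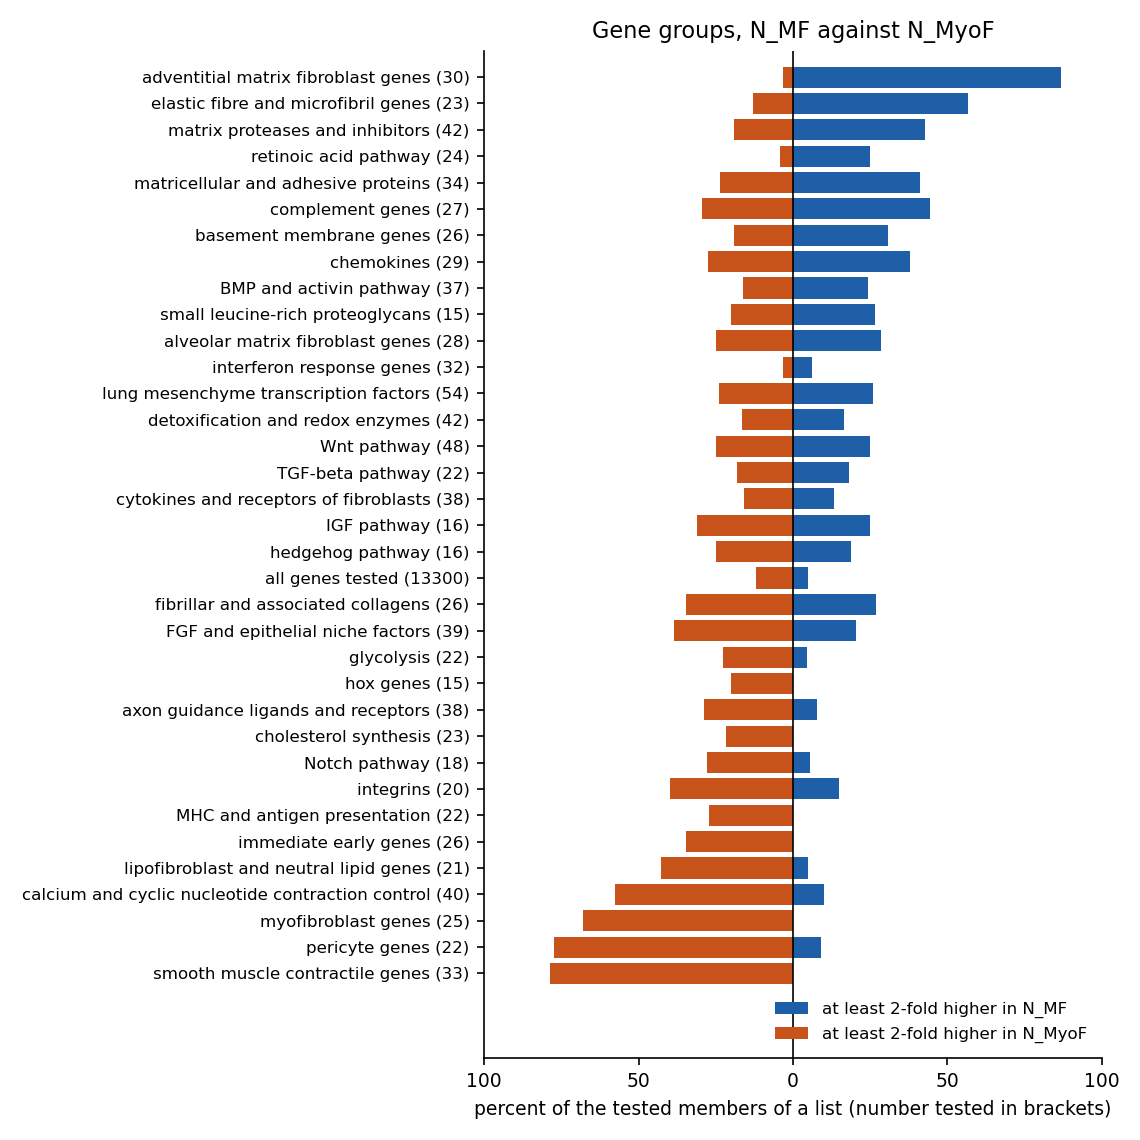
Share of the tested members of each gene list drawn that passed and differed at least 2-fold, in percent, with the number tested in brackets. Bars to the right are for N_MF and to the left for N_MyoF. Lists of other cell types and of kynurenine, cell cycle, heat shock, ribosomal protein, respiratory chain and sex-linked genes are not drawn. Some of these went further towards N_MyoF than any list shown, such as atrial genes with 26 of 28. Against 4.88% and 11.9% of all 13300 genes, adventitial genes show 26 of 30 to the right and smooth muscle genes 26 of 33 to the left. Signalling lists show bars on both sides.

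Developmental signalling pathways contributed ligands and antagonists to both subgroups. Of 57 Wnt pathway genes, 48 were tested and 12 were at least 2-fold higher in each subgroup (16 and 9 with median-ratio scaling). The N_MF side held secreted antagonists, with Sfrp4 at 145, 143 and 142 FPKM against 3.01, 3.61 and 2.98 FPKM, Dkk2 at 23.9 against 0.32 FPKM, Frzb at 25.8 against 1.48 FPKM, Sfrp1 at 39.3 against 3.34 FPKM and Sfrp2 at 27.8 against 4.15 FPKM. The N_MyoF side held the R-spondin receptors Lgr6 and Lgr5 (1.69 against 9.95 FPKM), the antagonist Wif1 (29 against 329 FPKM), the ligand Wnt5a (19.2 against 51.1 FPKM) and the nuclear effector Lef1 (0.21 against 8.17 FPKM). Different Wnt antagonists thus marked different subgroups.

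BMP antagonists showed a like split. Of 41 BMP and activin genes, 37 were tested, 9 were at least 2-fold higher in N_MF and 6 in N_MyoF. The antagonist Grem1 (0.417 against 9.83 FPKM) and the ligand Bmp5 (11.9 against 178 FPKM) were higher in N_MyoF, while Nbl1, also an antagonist (99 against 25.7 FPKM), and Gdf10, a divergent ligand (132 against 20.7 FPKM), were higher in N_MF. Bmp4 differed little (104 against 80.6 FPKM, 0.36 ± 0.0309). In the hedgehog list (18 genes, 16 tested), 3 were at least 2-fold higher in N_MF and 4 in N_MyoF. The coreceptor Cdon (14 against 1.67 FPKM) lay opposite to Hhip and to the targets Foxf1 (10.7 against 42.5 FPKM) and Foxf2 (3.93 against 22.9 FPKM). Of 23 TGF-beta genes, 22 were tested and 4 were at least 2-fold apart in each direction (4 towards N_MF and 2 towards N_MyoF with median-ratio scaling). Lrrc32 (48.7 against 9.3 FPKM) and Nrros (18.3 against 49.8 FPKM), which both tether latent TGF-beta to cell surfaces, lay on opposite sides.

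Growth factors of the epithelial niche were found on both sides, with 15 of 44 listed (39 tested) at least 2-fold higher in N_MyoF and 8 at least 2-fold higher in N_MF (10 and 8 with quantile normalization). Angpt2, a vessel-destabilising factor (7.99 against 88.6 FPKM), the neurotrophin Bdnf (2.96 against 22.9 FPKM) and the receptor Fgfr2 (0.803 against 8.29 FPKM) were among the former, and Vegfd and Pdgfra among the latter. Fgfr2 is also known from lung epithelium, whose markers moved the same way. IGF-binding proteins divided, with Igfbp4 (1515 against 185 FPKM) and Igfbp6 (1213 against 310.4 FPKM) higher in N_MF and Igfbp3 (76.2 against 435 FPKM) and Igfbp5 (56.3 against 265 FPKM) higher in N_MyoF. Of 26 retinoic acid genes, 24 were tested, 6 were at least 2-fold higher in N_MF and 1 in N_MyoF. The enzymes Adh1, Adh7 (24.5 against 2.15 FPKM) and Aldh1a3 (25.8 against 1.27 FPKM) and the retinol carrier Rbp4 (388 against 74.1 FPKM) were on the N_MF side. Notch genes (20 listed, 18 tested) went 5 to N_MyoF, led by Notch3, and 1 to N_MF, Dlk1 (5.99 against 1.31 FPKM), with 2 to N_MyoF under median-ratio or quantile scaling. Of 41 axon guidance genes, 38 were tested, 11 were at least 2-fold higher in N_MyoF (7 with quantile normalization), led by the ephrin Efnb2 (1.32 against 16 FPKM), and 3 in N_MF, led by the ligand Slit3 (36.2 against 4.77 FPKM).

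Transcription factors of lung mesenchyme differed in both directions. Of 66 listed, 54 were tested, 14 were at least 2-fold higher in N_MF and 13 in N_MyoF. Osr2 stood at 75.9, 73.5 and 74.3 FPKM in N_MF and 4.55, 3.91 and 4.3 FPKM in N_MyoF, its relative Osr1 at 187 against 21.8 FPKM, the homeobox gene Meox2 at 33.2 against 2.39 FPKM and Twist2 at 39.2 against 4.52 FPKM. Tbx4, which helps to specify lung mesenchyme, stood at 15.1, 14.3 and 15.3 FPKM in N_MF and 139, 139 and 137 FPKM in N_MyoF. Of the other T-box factors named, Tbx5 (12.8 against 60.5 FPKM), Tbx3 (13.6 against 51.3 FPKM) and Tbx2 (2.41 against 20.2 FPKM) were also higher in N_MyoF and Tbx20 (5.66 against 0.237 FPKM) was higher in N_MF. Gata5 (2.9 against 39.6 FPKM) and Hopx (29 against 80.8 FPKM) lay on the same side, and Hopx and Tbx5 are also known from alveolar epithelium and atrial muscle, whose lists moved with them. Of 30 Hox genes, 15 were tested and 3 were at least 2-fold higher in N_MyoF (1 with quantile normalization), among them Hoxb6 (7.99 against 26.3 FPKM) and Hoxb5 (11.4 against 24.1 FPKM). Srf, the factor that binds the CArG box, stood at 3.43 against 4.61 FPKM (-0.34 ± 0.0624), a difference that did not pass with median-ratio (-0.10) or quantile (-0.02) scaling.

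Complement and chemokine genes included many that were higher in N_MF. Of 28 complement genes matched, 27 were tested, 12 were at least 2-fold higher in N_MF and 8 in N_MyoF (12 and 5 with median-ratio or quantile scaling). C3, the central component, stood at 1106, 1128 and 1081 FPKM in N_MF and 57, 58.7 and 55 FPKM in N_MyoF. Factor B, Cfb, averaged 242 against 13 FPKM, the terminal component C7 172 against 9.63 FPKM and the decay-accelerating factor Cd55 108 against 6.01 FPKM. Those on the N_MyoF side included C1qa (1.98 against 9.34 FPKM), a macrophage product that moved with the leukocyte list, and Clu, clusterin (49.4 against 213 FPKM). Of 33 chemokine genes matched, 29 were tested, 11 were at least 2-fold higher in N_MF and 8 in N_MyoF. Cxcl12, which retains CXCR4-bearing cells, stood at 435, 439.6 and 446 FPKM in N_MF and 47.4, 47.6 and 45.8 FPKM in N_MyoF, and its scavenger receptor Ackr3 at 342 against 61.7 FPKM. Cxcl13, a B cell attractant, stood at 27.6 against 4.1 FPKM, while Ccl6 (7.34 against 41.3 FPKM) and Ccl3 (4.78 against 22.7 FPKM), which are known from myeloid cells, went to N_MyoF.

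Cytokine genes of fibroblasts (39 listed, 38 tested) went 5 to N_MF and 6 to N_MyoF by the 2-fold rule, but 11 and 4 with median-ratio scaling. The alarmin Il33 stood at 91.2, 86.8 and 89.6 FPKM in N_MF and 9.06, 7.84 and 8.46 FPKM in N_MyoF, and the macrophage growth factor Csf1 at 79.7 against 20.6 FPKM. The interleukin 1 genes Il1b (4.99 against 21.7 FPKM), Il1a (2.38 against 8.84 FPKM) and Il1rn (1.84 against 8.37 FPKM) were higher in N_MyoF. So, by the 2-fold rule, were 17 of the 22 leukocyte and macrophage genes tested. Of 23 MHC genes, 22 were tested and 6 were at least 2-fold higher in N_MyoF. The class II chain Cd74 (74.8 against 295 FPKM), H2-Ab1 (31.6 against 114 FPKM) and H2-Aa (22.9 against 84.7 FPKM) led them, beside Ptprc and the other leukocyte markers. Interferon response genes differed at least 2-fold in 3 of 32 matched, with Ifi27l2a at 234 against 19.5 FPKM and Iigp1 at 20.9 against 65.3 FPKM.

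Metabolic genes differed in part. Lipid-handling genes (23 listed, 21 tested) went 9 to N_MyoF, led by Car3 (0.347 against 6.84 FPKM) and the fatty acid carrier Cd36 (34.7 against 117 FPKM), and 1 to N_MF, the lipase Lpl (122 against 59.1 FPKM). Among 42 detoxification enzymes, all tested, 7 were at least 2-fold higher in each subgroup (9 and 4 with median-ratio scaling). Cyp1b1 (44.5 against 3.8 FPKM) was on the N_MF side, and Cyp2e1 (47.3 against 682 FPKM) and Cbr2 (60.4 against 397 FPKM), both known from club cells, on the N_MyoF side. Of 22 glycolysis genes 5 were at least 2-fold higher in N_MyoF, such as the glucose carrier Slc2a1 (14 against 37 FPKM), and 1 in N_MF, the hexokinase Hk2 (19 against 2.72 FPKM). Of 24 cholesterol synthesis genes, 23 were tested and 5 were at least 2-fold higher in N_MyoF (2 with median-ratio or quantile scaling), among them Sqle (2.45 against 6.68 FPKM). Respiratory chain genes were at least 2-fold higher in N_MyoF in 3 of 38 cases, including the muscle forms Cox7a1 (0.857 against 10.7 FPKM) and Cox6a2 (1.78 against 13.8 FPKM), which moved with the atrial list. None of the 32 ribosomal protein genes differed 2-fold, although 17 passed towards N_MF and 4 towards N_MyoF in limma, against 24.5% and 57.6% of all genes. Their median was 0.12 as deposited and 0.41 with median-ratio scaling.

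Immediate early genes, which are induced within minutes by tissue handling as well as by growth factors, were abundant in both groups. All 26 were tested and 9 were at least 2-fold higher in N_MyoF and 0 in N_MF. Nr4a2 stood at 36, 36.2 and 35.7 FPKM in N_MF and 412, 407 and 404 FPKM in N_MyoF, and Btg2 at 516 against 1867 FPKM. Fos was among the 5 most abundant genes of either group (6255 against 7662 FPKM), and its difference of -0.29 turned to 0.01 with median-ratio scaling. Egr1 (4185 against 6971 FPKM) and Zfp36 (2808 against 5415 FPKM) were also among the most abundant in N_MyoF, as was the ubiquitin gene Ubb (4024 against 4958 FPKM), which did not pass with median-ratio scaling. The list summed to 25561 to 26074 FPKM in N_MF and 40629 to 41661 FPKM in N_MyoF. Heat shock genes were at least 2-fold higher in N_MyoF in 2 of 17 cases (1 with median-ratio scaling), Dnajb4 (136 against 362 FPKM) and Hspb1 (1229.8 against 2860.2 FPKM). Cell cycle genes (33 listed, 32 tested) went 2 to N_MyoF (1 with median-ratio or quantile scaling), including the inhibitor Cdkn1a (179 against 705 FPKM), and 1 to N_MF, Ccnd2 (32.1 against 13.1 FPKM). How far handling moved with these differences was not tested.

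The kynurenine pathway, which breaks down tryptophan and is named in the study's title, had 13 listed genes, of which 8 were tested. At least 2-fold higher were 1 in each subgroup. Tdo2, which catalyses the first step of tryptophan breakdown, averaged 0.507 FPKM in N_MF and 4.95 FPKM in N_MyoF (-1.98 ± 0.0561), so that in normal lung it was higher in the myofibroblast libraries. Qprt, which uses a late product of the pathway to make NAD, was the only member at least 2-fold higher in N_MF (4.41 against 0.0633 FPKM).

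A small set of genes was present in a single subgroup. By the rule of at least 5 FPKM in all 3 libraries of 1 group and under 0.5 FPKM in all 3 of the other, 14 of 20606 genes (0.0679%) were present in N_MF and near 0 in N_MyoF, and 38 (0.184%) the reverse. The former included Mrgprg, an orphan G protein-coupled receptor (17.8 ± 0.183 against 0.107 ± 0.0153 FPKM, SD, n = 3), the Wnt antagonist Dkk2, Hmcn2, Agtr2, the pattern recognition protein Ptx3 (10.9 ± 0.462 against 0.12 ± 0.0173 FPKM, SD, n = 3) and Tbx20. The latter included Trpc6 and Notch3, the potassium channel Kcnk3 (0.403 ± 0.00577 against 19.2 ± 0.42 FPKM, SD, n = 3), Lef1 and genes of the other-cell lists, such as Alas2, Reg3g (0.13 against 16 FPKM), Otor (0.103 against 13.7 FPKM) and Ltf (0.0567 against 6.82 FPKM). Glycam1, a mucin-like protein of high endothelial venules, was listed at 0 in all 3 N_MF libraries and at 46.9, 49.1 and 43.5 FPKM in N_MyoF. Bpifa1 and Pnmt lie just outside this set, with N_MF libraries above 0.5 FPKM. Bpifa1, an airway secretory protein, stood at 0.43, 0.53 and 0.66 FPKM and 105, 97.2 and 102 FPKM. Pnmt, which makes adrenaline from noradrenaline, stood at 0.5, 1.12 and 1.16 and 64.9, 70 and 64 FPKM.

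The same subgroups from metastatic lung shared no library with the normal comparison and showed many of its differences again. Between M_MF and M_MyoF, 1804 genes were at least 2-fold apart (13.6% of 13300; 4.74% higher in M_MF and 8.82% higher in M_MyoF). Of the 649 genes at least 2-fold higher in N_MF, 416 (64.1%) were at least 2-fold higher in M_MF, 607 passed in that direction in limma (of all genes 85.1% passed in either direction and 19.1% towards M_MF) and 25 passed in the opposite one. Of the 1583 at least 2-fold higher in N_MyoF, 807 (51%) were at least 2-fold higher in M_MyoF, 1465 passed in that direction (66% of all genes did) and 67 in the opposite one. The median log2 difference of the 649 genes was 1.65 in normal and 1.32 in metastatic lung, and that of the 1583 genes was -1.45 and -1.02. Because the genes were selected on the normal lung values, these medians are not a like-for-like comparison of the conditions. Among list medians, adventitial genes had 2.96 in normal and 2.57 in metastatic lung, smooth muscle genes -2.45 and -1.74, and pericyte genes -2.41 and -2.63, against -0.21 and -0.29 for all genes.

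Several of the strongest subgroup genes kept large differences. Pi16 stood at 602, 599.8 and 577 FPKM in M_MF and 25.8, 24.7 and 23.7 FPKM in M_MyoF, Apod at 329, 331 and 321 and 5.33, 5.6 and 5.38 FPKM, and Sfrp4 averaged 93 against 2.57 FPKM. Hhip stood at 44.9, 42.8 and 42 FPKM in M_MF and 802, 785 and 774 FPKM in M_MyoF, Myh11 averaged 1.9 against 59.1 FPKM and Higd1b 2.64 against 169 FPKM. For each of these 6 genes the 2 metastatic groups lay apart in the same direction as the normal ones.

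A direct test of the difference between the 2 subgroup differences found 944 genes that passed and differed at least 2-fold (7.1% of 13300). Of these, 3.83% of all genes tested shifted towards MF in metastatic lung and 3.27% towards MyoF. Ccl8 had differences of 4.53 in normal and 1.34 in metastatic lung (difference -3.19 ± 0.13; limma, adjusted p = 4.9e-10), and averaged 104 FPKM in M_MF and 40.5 FPKM in M_MyoF. Fbln2 (-2.69 ± 0.0413) and Scara5 (-2.49 ± 0.0381) also differed less between the subgroups in metastatic lung.

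By the 2-fold rule in both conditions, 3 genes were higher in N_MF but lower in M_MF, and 22 were higher in N_MyoF but lower in M_MyoF. Tdo2 was among the latter. Its 3 M_MF libraries averaged 294 FPKM and its M_MyoF libraries 80.3 FPKM, and the log2 difference went from -1.98 to 1.86 (limma, adjusted p = 1e-12 for the change). Car4, a carbonic anhydrase on the endothelial list, went from 17.8 against 65.5 FPKM in normal lung to 702 against 111 FPKM in metastatic lung. Trf, transferrin (-1.18 to 2.18), Chil3, a chitinase-like protein of macrophages (-2.41 to 1.44), Lrrn4, a mesothelial gene (-2.67 to 1.31), and Gatm, the first enzyme of creatine synthesis (-2.09 to 1.45), reversed in the same direction. The 3 that reversed in the other direction were the activin antagonist Fst (1.27 to -1.17), the protein-citrullinating enzyme Padi4 (3.11 to -1.03) and the formin Fmnl1 (1.12 to -1.17). Neutrophil markers also shifted in the metastatic libraries, with a list median of -1.08 in normal and -4.75 in metastatic lung, and S100a9 at 77.7 against 4638 FPKM. Mesothelial markers had medians of -0.67 and 1.03. How much of the reversals moved with RNA of these cells was not tested.

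**Figure D5:**
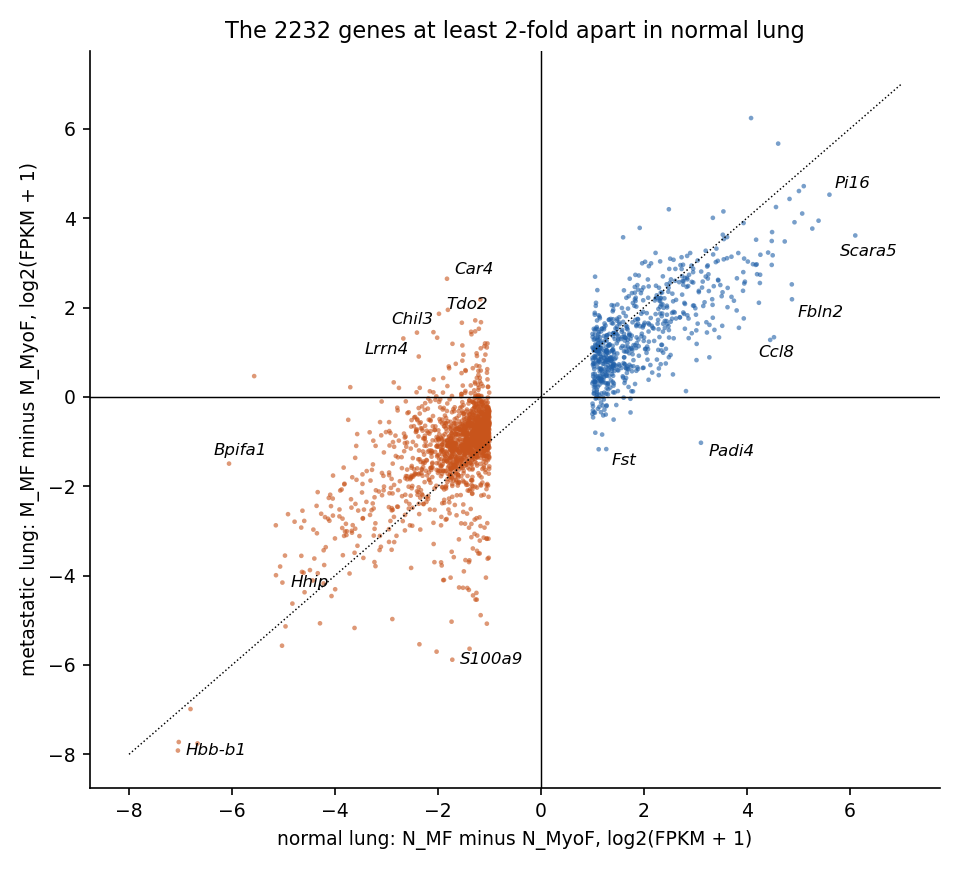
Log2 difference between the subgroups in metastatic lung (vertical axis) against that in normal lung (horizontal axis) for the 2232 genes at least 2-fold apart in normal lung, blue where higher in N_MF and orange where higher in N_MyoF. The dotted line marks equal differences. Points in the upper left, such as Tdo2 and Car4, reversed from N_MyoF to M_MF, and those in the lower right, such as Padi4 and Fst, the other way.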

How the data were processed

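The series holds 12 mouse lung fibroblast libraries in 4 groups of 3, grouped by their titles. RNA was isolated with Trizol, copied and amplified with SMART-SeqII and made into libraries with a transposon method, per the labels' protocols. The deposited values are FPKM computed by the authors, per the file headers, on GRCm38 per the submitters' processing notes. No aligner, counter or annotation is given in the sources used here. Depth is unknown, so no counting interval can be given, and precision rests on the 3 libraries of a group. There were 0 columns of other samples, and 2 symbols stood on 2 lines and were kept apart.

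Values were analysed as log2(FPKM + 1), with genes at 1 FPKM or more in at least 3 libraries, using limma 3.58.1 (mean-variance trend, 1 model of 4 group means) and statmod 1.5.0 under R 4.3.3. Tables and figures used Python 3.11.15, pandas 2.3.3, numpy 2.4.6 and matplotlib 3.10.9. The code was tested on simulated data with known differences. Gene positions and promoter windows are from RefSeq on GRCm38.p6, joined by gene number for 20548 genes.

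The replicate numbers appeared to pair the libraries: over 1830 genes at 50 FPKM or more, deviations from group means correlated by 0.482 to 0.796 in the 18 pairs with the same number and by -0.683 to 0.38 in the 36 others. The labels do not say what the number marks. A fit with the number as a block was therefore run beside the main one.

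The members and the 54 gene lists (1371 distinct genes, 1362 matched) were chosen with earlier results of these data known. Named genes are the 15 with the largest difference per direction (passed, not overlapping, at least 10 FPKM in the higher group, no unnamed gene models), up to 5 members per list with the largest difference and up to 2 in the other direction (at least 5 FPKM), the cell markers given, the 5 most abundant genes per group, and those of the 15 that passed in the opposite direction in metastatic lung. Genes named outside this rule were chosen after their values were seen: Bmp4, Cdh2, Ear1, Eln, Emb, Enpp2, Fgf1, Fgf10, Fmnl1, Fst, Gatm, Kcnk3, Lef1, Lgr5, Ltc4s, Lum, Mrgprg, Myl6, Myl9, Osr1, Padi4, Postn, Ptx3, Qprt, Sfrp1, Sfrp2, Srf, Sytl1, Tbx2, Tbx20, Tbx3, Tbx5, Tdo2, Tmem151a, Trf, Twist2 and Wnt5a. Alternatives covered pseudocounts of 0.1 and 5, no filter, a filter of 5 FPKM, 3 scalings, the compared groups alone, the block, no trend, library weights, each library left out, and an adjusted p under 0.01. A fit without the 4 libraries numbered 3 was chosen after seeing the data.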

Additional observations from a re-analysis of the deposited data

Results flagged for a closer look

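The subgroup difference itself differed between normal and metastatic lung by at least 2-fold for 944 genes, by a test of the difference between the differences in limma. The values below are metastatic minus normal log2 differences, so a positive value is a shift towards MF. Such a shift can come from a rise in MF or a fall in MyoF. All genes named here passed with groups of 3 libraries, and the whole set is 7.1% of 13300 genes. The genes given are those with the largest differences in normal lung and those that reversed and averaged at least 10 FPKM in any of the 4 groups. Unnamed gene models were left out, and Rgs2 and Acta2 were added outside this rule. Many others of the set are therefore not named. Padi4 (-4.14) and Fst (-2.44) were higher in N_MF and reversed. Of other genes higher in N_MF, the gap narrowed for Ccl8 (-3.19), Fbln2 (-2.69), Scara5 (-2.49), Angptl7 (-2.36), Ccl11 (-1.50), Serpinf1 (-1.45), Smoc2 (-1.26), Pi16 (-1.08) and Itgbl1 (-1.02). Apod widened (1.06).

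Of genes higher in N_MyoF, Agt (2.27), Ednrb (1.42) and Lgr6 (1.27) shifted towards MF, as did Rgs2 (1.73) and Acta2 (1.10) of the contraction and smooth muscle lists. Genes of secretory, cartilage, endothelial, leukocyte and mesothelial lists or known from such cells shifted too. They were Glycam1 (6.04), Bpifa1 (4.56), Car4 (4.47), Lrrn4 (3.98), Chil3 (3.85), Ear1 (3.76), Ear2 (3.34), Cnmd (2.73) and Chad (2.29). Glycam1 was near 0 in both metastatic groups (0.383 FPKM in M_MF and 0 in M_MyoF), against 46.5 FPKM in N_MyoF. The other genes were Tdo2 (3.84), Gatm (3.54), Trf (3.36), Emb (3.20), Tmem151a (2.91), Cdh2 (2.81), Ltc4s (2.74), Fgf1 (2.26), Sytl1 (2.16) and Pnmt (1.15). Ear1 and Ear2 belong to a family of close copies, so their reads could have been split.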

How the results depend on the processing

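Counts at 2-fold depended on the pseudocount. With a pseudocount of 0.1, 2403 genes were at least 2-fold higher in N_MyoF, 2768 were at least 2-fold apart in metastatic lung and 1448 in the difference of differences. With a pseudocount of 5, 1107 genes were at least 2-fold apart in normal lung (404 towards N_MF and 703 towards N_MyoF), 861 in metastatic lung and 456 in the difference of differences. The 52 genes present in a single subgroup became 31 with quantile normalization and 18 when 10 FPKM was asked of the higher group. The fit with the replicate block gave 650 genes towards N_MF and 1584 towards N_MyoF and moved no count by over 1.5 times. Without the 4 libraries numbered 3 the counts were 646 and 1574. Scaling to equal sums gave 756 and 1933, and 1241 in the difference of differences. Leaving out each library in turn gave 2214 to 2235 genes at least 2-fold apart (640 to 656 and 1569 to 1585 by direction), 10606 to 10903 that passed, 1799 to 1825 in metastatic lung, 949 to 965 in the difference of differences and 52 to 57 present in a single subgroup. Among the single genes named, median-ratio scaling turned Fos to 0.0065 and Wt1 to 0.17, quantile normalization turned Wt1 to 0.33, and Limch1, Ubb and Srf lost their call under 1 or both of these scalings. The cause was not tested. Depth is unknown, so differences of genes near 0 FPKM are not bounded by counting error.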
